A study of Homo sapiens with 18 samples.

Results

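The cytosolic ribosomal proteins were taken as the gene rows whose symbol is RPL or RPS followed by a number, with an optional A, X or L, together with RPLP0, RPLP1, RPLP2, RPSA and RPL22L1. This gave 82 of the 26485 gene rows. Of these, 50 belong to the large subunit and its stalk and 32 to the small subunit, and 5 of the 82 are paralogs (RPL3L, RPL10L, RPL22L1, RPL39L and RPS27L). The RNA is from the WIBR3 line of human embryonic stem cells (hESC) and was measured by bulk MARS-seq, which tags and counts the 3' ends of transcripts. The 6 groups, of 3 libraries each, were hESC LIS1+/-, hESC LIS1+/+, organoids at Day 5 LIS1+/-, organoids at Day 5 LIS1+/+, organoids at Day 12 LIS1+/- and organoids at Day 12 LIS1+/+. LIS1 (gene symbol PAFAH1B1) is a regulator of the dynein motor. How the LIS1+/- line was made, how many clones it holds and whether the 3 libraries of a group came from separate cultures are not given in the sources used here. Every p-value therefore rests on library-to-library spread alone, which may be technical.

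Cytosolic ribosomal proteins are made in matched amounts and join ribosomal RNA in the nucleolus, helped by biogenesis factors, to form the small subunit, which decodes mRNA, and the large subunit, which forms peptide bonds. Their mRNAs are known for a terminal oligopyrimidine (TOP) start, a C followed by an unbroken run of C and T, through which mTOR and the RNA-binding protein LARP1 control their translation. MYC and MYCN raise the transcription of many ribosome genes. In embryonic stem cells, biogenesis genes are highly transcribed, and their activity is known to drop as cells take on neural fates.

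Start sequences are shown for a selection of the members named below, because the pyrimidine run is the feature this family is known to share. RPLP0 is shown although it passed in no stage comparison. The sequences are RefSeq starts on GRCh38.p14, printed 5' to 3' on the transcribed strand. Each spans 10 bases before the annotated start and 20 from it, and capitals mark the first run of a C followed by at least 4 bases that are each C or T, among runs that begin at the annotated start or after it. Bases before the start stay in lower case even where a run extends into them. RPL34, RPL22, RPS10, RPSA and RPLP0 have a run that meets this rule at the annotated start, and RPL4 has one downstream. The run of RPL3 begins 1 base before the start and so is not in capitals, and RPS29 has none.
RPL34 (chr4:108620566-108620595, plus strand): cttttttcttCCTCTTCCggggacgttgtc
RPL22 (chr1:6199576-6199605, minus strand): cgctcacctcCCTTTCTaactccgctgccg
RPS10 (chr6:34426050-34426079, minus strand): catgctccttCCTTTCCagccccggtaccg
RPSA (chr3:39406710-39406739, plus strand): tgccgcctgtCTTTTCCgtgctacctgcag
RPLP0 (chr12:120201092-120201121, minus strand): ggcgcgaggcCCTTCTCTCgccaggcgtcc
RPL4 (chr15:66504836-66504865, minus strand): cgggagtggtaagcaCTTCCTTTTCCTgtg
RPL3 (chr22:39319604-39319633, minus strand): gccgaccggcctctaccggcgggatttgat
RPS29 (chr14:49598691-49598720, minus strand): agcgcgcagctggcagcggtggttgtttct

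The RefSeq promoter table held 65 of the 82 members. The run stood at the annotated start in 43 of these 65 (66.2%), against 994 of the 22365 file genes in the table (4.44%). Searched from 5 bases before to 20 after the start, on the transcribed strand only, it was in 57 of the 65 (87.7%), against 8284 of 22365 genes (37%). Among members in the table, the run at the start was held by 11 of the 18 that fell between hESC and Day 5 in LIS1+/+, 2 of the 3 that rose and 30 of the 42 that did not pass. A match describes these letters and does not show that the mRNA is controlled through them.

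Gene counts per library ranged from 1425098 to 4501489. PAFAH1B1 had 61.2, 51.4 and 55.9 counts per 1000000 gene counts, scaled by TMM (CPM), in hESC LIS1+/-, against 84.8, 72.1 and 111 CPM in hESC LIS1+/+. At Day 5 it had 89, 105 and 84.3 CPM in LIS1+/-, against 130, 134 and 152 CPM in LIS1+/+. At Day 12 it had 104, 114 and 76.1 CPM in LIS1+/-, against 147, 218 and 140 CPM in LIS1+/+. No LIS1+/- library reached the LIS1+/+ libraries of its stage, although only Day 12 passed (log2 fold change -0.78 ± 0.20, SE, adjusted p = 0.0372, edgeR's quasi-likelihood test with Benjamini-Hochberg adjustment). Against the mean of the other libraries of the same stage, 3 libraries that stand apart had lower counts the higher the GC content of a transcript's end. These were replicate 2 of Day 5 LIS1+/-, replicate 3 of hESC LIS1+/+ and replicate 2 of Day 12 LIS1+/+. Their log2 slopes were -0.0237, -0.0176 and -0.0283 per percent GC over all genes and -0.0158, -0.0183 and -0.0151 over members. The largest slope the other way over all genes was 0.0139, in replicate 1 of hESC LIS1+/-. The summed stem cell markers, POU5F1 among them, were at 3610 to 3839 CPM in hESC LIS1+/- and 4704 to 4965 CPM in hESC LIS1+/+, and at 121 to 174 CPM in Day 12 LIS1+/- and 201 to 251 CPM in Day 12 LIS1+/+.

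Ribosomal protein genes were among the most counted genes of these libraries, yet a few yielded almost no counts. Members made up 41 of the 100 rows with most counts, and 63 of the 82 averaged at least 1000 counts per library. RPL10, an essential large-subunit protein encoded on chromosome X, had 1 count over all 18 libraries, in a Day 5 LIS1+/+ library. Its retrogene RPL10L had 0 counts and RPL3L, the muscle paralog of RPL3, had 1 count. With 47416238 gene counts over all libraries, a count of 0 allows a level of up to 0.0633 CPM (3 counts, counting error only). These 3 were not tested, and 79 members passed the filter on low counts.

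Another 7 members averaged under 100 counts per library: RPL22L1 (8.22), RPL37 (8.72), RPL13 (10), RPS27L (28.1), RPL27A (29.4), RPL32 (55.9) and RPL39L (58). Counting kept uniquely aligned reads and set the rest aside, and ribosomal protein genes have many processed pseudogenes, 1132 of which are named after members in GENCODE release 29. Of the stretches of 50 bases in the last 300 bases of the RPL10 transcript, 65.3% also occurred in other annotated genes, and 19 pseudogenes carry its name. RPL9, with 94.8% of its stretches shared, averaged 1238 counts, and RPL21, with 85.3% shared and 66 named pseudogenes, averaged 754 counts. Setting paralogs aside, the 5 members under 100 counts had a median of 11 named pseudogenes and 46.2% of stretches shared, and the other 72 had medians of 9.5 and 32.1%. For RPL37 and RPL27A the annotated transcript used was 7686 and 4916 bases long, so its last 300 bases need not be where their reads fall. The 31 pseudogene rows of the files held 54447 counts, against 5940470 in the members. The build the counts rest on is not known, and where the reads of RPL10 went was not tested.

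Together the 82 members took up 9.84% to 14% of the gene counts of a library, with the lowest mean share in Day 12 LIS1+/-. The share was 12.4% ± 1.24 in hESC LIS1+/- and 13.4% ± 0.61 in hESC LIS1+/+ (SD, n = 3 each). At Day 5 it was 12.9% ± 0.0389 in LIS1+/- and 13% ± 0.588 in LIS1+/+. At Day 12 the LIS1+/- libraries were at 11.9%, 11% and 9.84%, against 13%, 12.7% and 13% in LIS1+/+ libraries. All 3 Day 12 LIS1+/- libraries were below all 3 LIS1+/+ libraries of that day. On the scale corrected for library composition, the summed members were at 160118, 129885 and 122833 CPM in hESC LIS1+/-, against 159089, 136945 and 148315 CPM in hESC LIS1+/+. At Day 5 they summed to 126211, 121421 and 126946 CPM in LIS1+/-, against 134535, 136947 and 119845 CPM in LIS1+/+. The sums were 111629, 100916 and 90620 CPM in Day 12 LIS1+/-, against 122712, 113470 and 124596 CPM in Day 12 LIS1+/+. On this scale every Day 12 library lay below every hESC library of its genotype, which the share of gene counts did not show in either genotype.

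**Figure D1:**
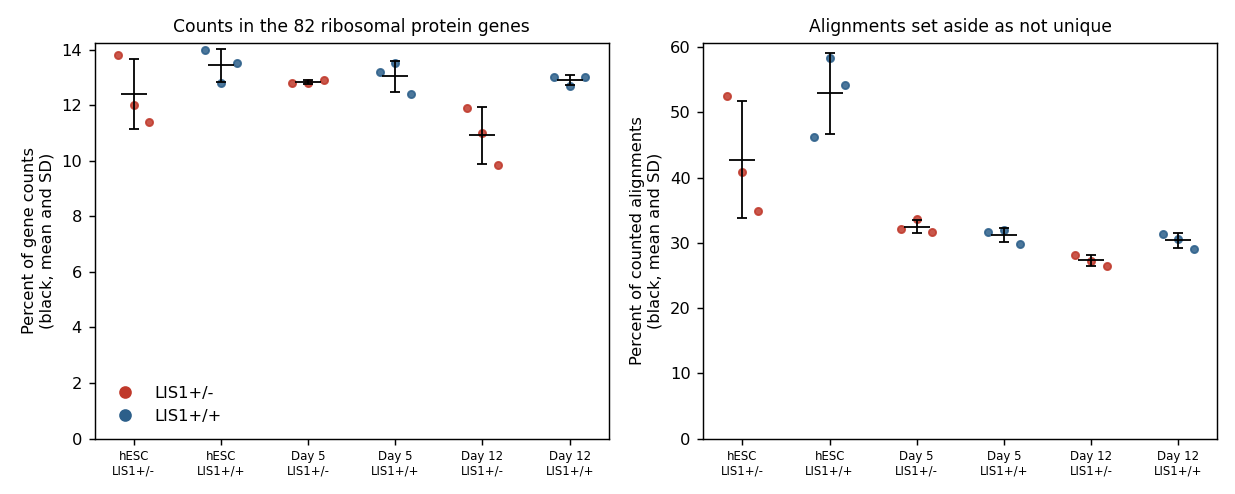
Left, percent of gene counts in the 82 ribosomal protein genes by library; right, percent of counted alignments set aside as not unique, for the 6 groups of 3 libraries, with mean and SD in black. The member share runs from 9.84% to 14% over all libraries, while the share set aside reaches 58.3% in hESC and lies between 26.5% and 33.7% in organoids.

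The share of alignments set aside as not unique moved with stage beside these values. It was 42.8% ± 8.96 in hESC LIS1+/-, against 52.9% ± 6.12 in hESC LIS1+/+. At Day 5 it was 32.5% ± 1.03 in LIS1+/- and 31.1% ± 1.11 in LIS1+/+, and at Day 12 it was 27.3% ± 0.84 in LIS1+/- and 30.4% ± 1.18 in LIS1+/+. With those alignments added to the denominator, members made up 5.98% in hESC LIS1+/-, against 5.25% in hESC LIS1+/+. They made up 7.33% in Day 5 LIS1+/-, against 7.78% in Day 5 LIS1+/+, and 7.05% in Day 12 LIS1+/-, against 7.91% in Day 12 LIS1+/+. The order of the hESC and Day 12 means thus depended on the denominator in both genotypes. That of hESC and Day 5 did so in LIS1+/+ only, and in LIS1+/- the Day 5 mean was the higher with either denominator. As shares of gene counts, the LIS1+/+ means of 13% at Day 5 and 12.9% at Day 12 lay within the SD of hESC (13.4% ± 0.61). In bulk samples, fewer cells of a type and less RNA per cell cannot be told apart.

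Between hESC and Day 5 in LIS1+/+, 22 members fell and 5 rose, with 52 not passing. That is 34.2% of the 79 tested, against 44.6% of all 12215 tested genes (21.7% fell and 22.9% rose), and the median member log2 fold change was -0.19, against 0.06 over all genes. In LIS1+/-, 20 fell and 8 rose (35.4%, against 43.7% of all tested genes, of which 21.4% fell and 22.4% rose), with a median of -0.12 against 0.06. The 200 most counted genes outside the family had a median of -0.19 in LIS1+/+ and -0.23 in LIS1+/- at this step. The same 12 members fell in both genotypes, among them RPL4, RPL5, RPL12, RPL23A, RPL24, RPL27, RPS16, RPS29 and RPSA. How many of all tested genes fell in both was not counted. RPS15A and RPL7 rose in both genotypes. Large- and small-subunit members passed at like rates in LIS1+/+, 16 of 47 and 11 of 32.

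**Figure D2:**
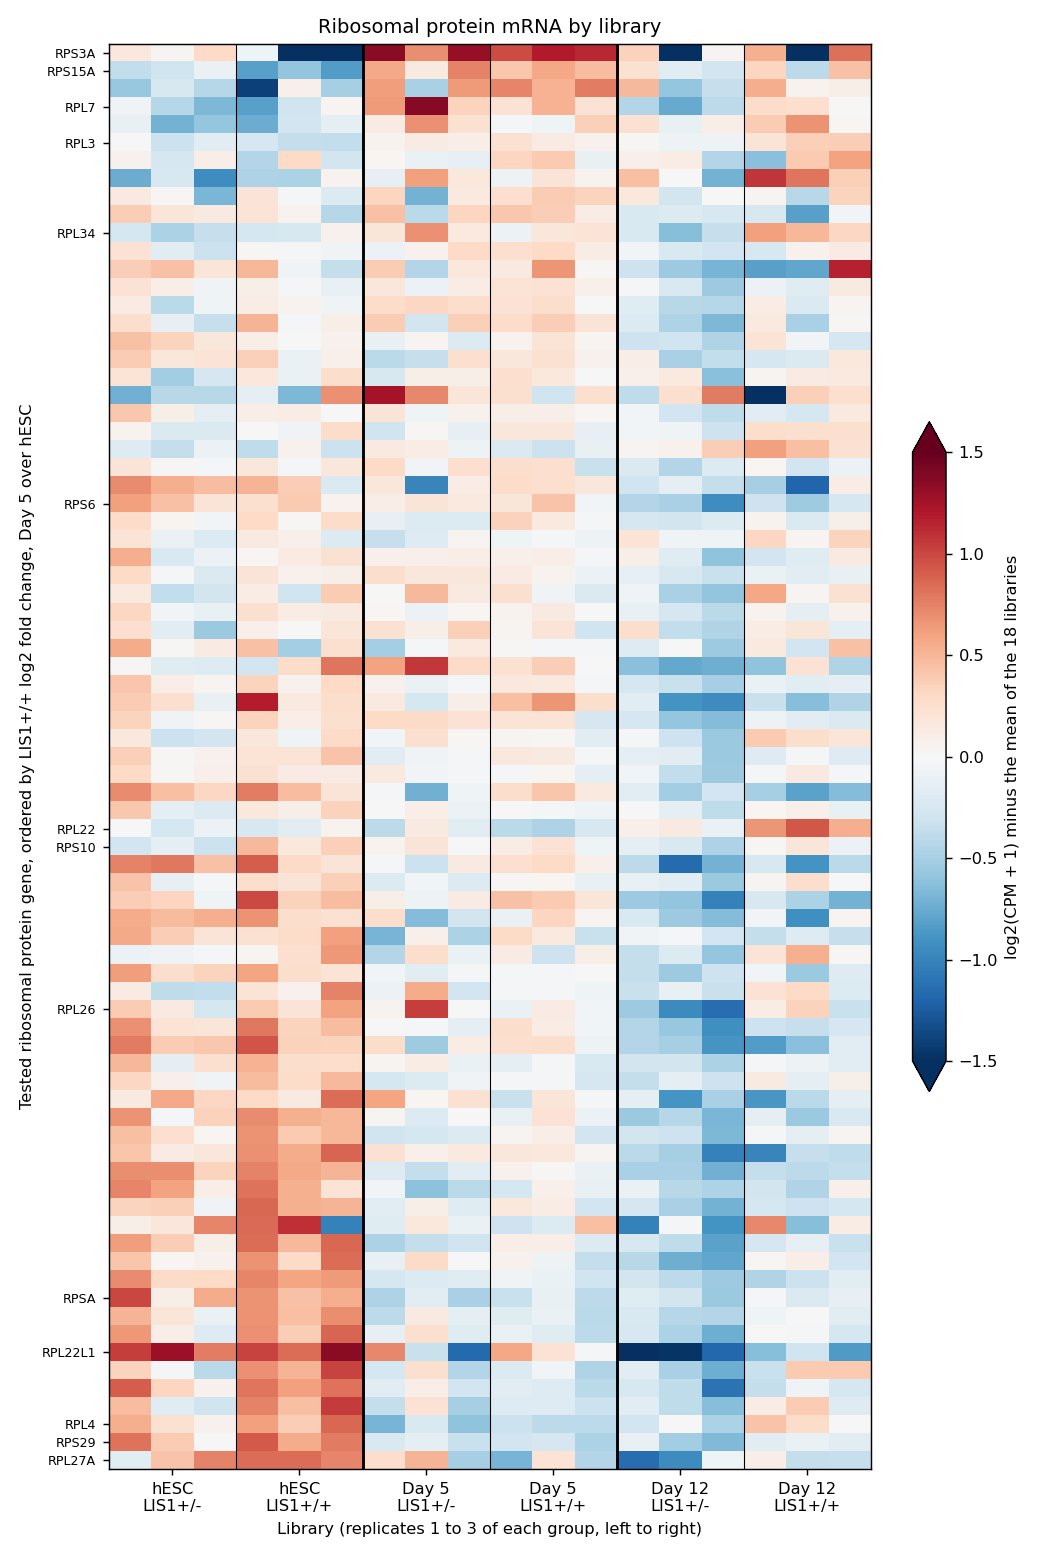
Each row is 1 of the 79 tested members, a few of them labelled, ordered by its LIS1+/+ log2 fold change of Day 5 over hESC, and each column is 1 library; colour is log2(CPM + 1) minus the row's mean over the 18 libraries. Rows at the bottom, RPS29 and RPL4 among them, are highest in hESC, RPS3A and RPS15A at the top are highest at Day 5, and most rows are blue, below their mean, in the Day 12 LIS1+/- libraries.

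Among the members that fell, RPL4, which lines the peptide exit tunnel, had 1326, 1836 and 1417 CPM in Day 5 LIS1+/-, against 3140, 2527 and 2264 CPM in hESC LIS1+/-. In LIS1+/+ it had 1730, 1641 and 1643 CPM at Day 5, against 3304, 2798 and 3910 CPM in hESC. No Day 5 library reached an hESC library in either genotype, and the log2 fold change was -0.79 ± 0.17 in LIS1+/- (adjusted p = 0.000375, edgeR) and -1.0 ± 0.17 in LIS1+/+ (adjusted p = 2.47e-05, edgeR). RPS29, a zinc-binding protein of the small-subunit head, had 508, 540 and 471 CPM in Day 5 LIS1+/-, against 1050, 776 and 592 CPM in hESC LIS1+/-. It had 487, 501 and 427 CPM in Day 5 LIS1+/+, against 1125, 872 and 1017 CPM in hESC LIS1+/+. All Day 5 libraries lay below all hESC libraries. RPSA, which sits at the mRNA exit side of the small subunit and whose loss of 1 copy in people causes absence of the spleen, fell by 0.96 ± 0.17 on the log2 scale in LIS1+/- and by 0.83 ± 0.17 in LIS1+/+.

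Other large falls in LIS1+/+ were in RPL27A (-1.14 ± 0.36; -0.94 and adjusted p = 0.0612, edgeR, without Day 5 LIS1+/+ replicate 1), RPL27 (-1.0 ± 0.20), RPL38 (-1.0 ± 0.21), which in mice is needed for translation of Hox mRNAs, and RPL35A (-0.97 ± 0.22), all of the large subunit. In LIS1+/- only RPL27 of these passed (-0.58 ± 0.20, adjusted p = 0.0205, edgeR), while RPL38 (-0.21 ± 0.21) and RPL35A (-0.12 ± 0.22) did not. Between genotypes RPL35A averaged 616 ± 158 CPM in hESC LIS1+/- and 1040 ± 190 CPM in hESC LIS1+/+ without passing (adjusted p = 0.149, edgeR). Among those that passed in LIS1+/-, the largest falls after RPL22L1 and RPSA were in RPS16 (-0.83 ± 0.19), RPL23A (-0.82 ± 0.14), which lies at the exit of the peptide tunnel, RPL4 and RPL24 (-0.75 ± 0.16).

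RPS15A, a small-subunit protein, was the clearest rise. It had 399, 296 and 454 CPM in Day 5 LIS1+/-, against 208, 219 and 252 CPM in hESC LIS1+/- (log2 fold change 0.76 ± 0.19, adjusted p = 0.00206, edgeR). In LIS1+/+ it had 358, 403 and 372 CPM at Day 5, against 153, 178 and 150 CPM in hESC (1.24 ± 0.19, adjusted p = 9.55e-06, edgeR). Neither pair of groups overlapped. RPL7, which binds the large-subunit rRNA near the 5S particle, had 235, 389 and 190 CPM in Day 5 LIS1+/-, against 145, 112 and 93.8 CPM in hESC LIS1+/-. It had 175, 217 and 175 CPM in Day 5 LIS1+/+, against 84.8, 122 and 155 CPM in hESC LIS1+/+. Both rises passed (1.22 ± 0.23 in LIS1+/- and 0.66 ± 0.23 in LIS1+/+), and 61 pseudogenes carry the name of RPL7, so its counts may be split. The call in LIS1+/+ was lost without hESC LIS1+/+ replicate 1 or 2 or without Day 5 LIS1+/+ replicate 2.

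RPL3, which shapes the peptidyl transferase centre, rose in LIS1+/+ (3679, 3422 and 3306 CPM at Day 5, against 2646, 2456 and 2445 CPM in hESC; log2 fold change 0.46 ± 0.12). It did not pass with the GC trend removed from each library (0.30), an alternative chosen after seeing the data. RPL39, a small protein in the tunnel wall, rose in LIS1+/+ by 1.22 ± 0.33. The largest rise in LIS1+/+, that of RPS3A, rested on uneven libraries. RPS3A had 181, 209 and 201 CPM at Day 5, against 87.1, 18 and 17.4 CPM in hESC LIS1+/+, where the lower libraries held 27 and 28 counts. Its log2 fold change was 2.22 ± 0.75 (adjusted p = 0.0288, edgeR), and 1.85 without the 3 libraries that stand apart (adjusted p = 0.0748). The call was also lost without hESC LIS1+/+ replicate 2 or 3 or without Day 5 LIS1+/+ replicate 2 or 3. RPS3A was also uneven at Day 12, at 116, 13.7 and 94 CPM in Day 12 LIS1+/- and 132, 29.6 and 163 CPM in Day 12 LIS1+/+.

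Among the members that passed, the largest rises at Day 5 in LIS1+/- were in RPL37 (1.66 ± 0.67), RPL7, RPS27 (0.85 ± 0.26), RPL41 (0.81 ± 0.20), RPS27A (0.81 ± 0.23), made as a fusion with ubiquitin, and RPS15A. RPL37 was at 7.85, 5.12 and 3.22 CPM in Day 5 LIS1+/-, against 1.26, 1.8 and 1.8 CPM in hESC LIS1+/-, so few counts lie behind it. Without Day 5 LIS1+/- replicate 2 and the other libraries that stand apart, RPL37 (1.68, adjusted p = 0.0638, edgeR) and RPS27 (0.63, adjusted p = 0.11, edgeR) did not pass. The call of RPS27 was also lost without replicate 1 or 3 of hESC LIS1+/-, that of RPL37 with any library but Day 5 LIS1+/- replicate 3 left out, and that of RPS27A without Day 5 LIS1+/- replicate 2 (0.58, adjusted p = 0.0546, edgeR). RPL41, RPL7 and RPS15A passed whichever library of the comparison was left out.

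Between Day 5 and Day 12, 19 members fell and 0 rose in LIS1+/- (24.1%, against 16.5% of all tested genes, of which 7.64% fell and 8.9% rose), and the median log2 fold change was -0.33, against -0.01 over all genes. With the GC trend removed, an alternative chosen after seeing the data, 31 fell. DESeq2 also gave 19 falls and 0 rises. An unadjusted p under 0.05 was held by 34 of the 79 members, against 3679 of all 12215 tested genes. The count was lower, at 10 to 12, without replicate 1 or 3 of Day 5 LIS1+/- or replicate 2 or 3 of Day 12 LIS1+/-. In LIS1+/+, 8 fell and 3 rose (13.9%, against 24.5% of all tested genes, of which 11.7% fell and 12.7% rose), with a median of -0.15 against 0.02. The same 4 members fell in both genotypes: RPL9, RPS6, RPS13 and RPS26. The matching number over all tested genes was not counted. The 200 most counted genes outside the family had a median of -0.20 in LIS1+/- and -0.30 in LIS1+/+.

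RPS6, the classical substrate of S6 kinase, had 1275, 1231 and 901 CPM in Day 12 LIS1+/-, against 1848, 1978 and 1906 CPM in Day 5 LIS1+/-. In LIS1+/+ it had 1395, 1186 and 1443 CPM at Day 12, against 1960, 2313 and 1675 CPM at Day 5. The groups did not overlap in either genotype (-0.75 ± 0.16 in LIS1+/- and -0.56 ± 0.16 in LIS1+/+). RPS26, which contacts mRNA at the exit channel, fell by 0.77 ± 0.17 in LIS1+/- and by 0.67 ± 0.17 in LIS1+/+.

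Several members fell at Day 12 in LIS1+/- and did not pass in LIS1+/+. RPS27A had 262, 238 and 243 CPM in Day 12 LIS1+/-, against 617, 847 and 493 CPM in Day 5 LIS1+/- (log2 fold change -1.40 ± 0.24, adjusted p = 0.00021, edgeR). In LIS1+/+ it averaged 344 ± 110 CPM at Day 12 and 467 ± 59.5 CPM at Day 5 (adjusted p = 0.174, edgeR). RPL26, which binds the large-subunit rRNA near the tunnel exit, had 690, 520 and 455 CPM in Day 12 LIS1+/-, against 1042, 2067 and 1013 CPM in Day 5 LIS1+/- (-1.31 ± 0.24). In LIS1+/+ it averaged 1054 ± 239 CPM at Day 12 and 1004 ± 80.8 CPM at Day 5. RPL7 (-1.38 ± 0.23) and RPL31 (-0.76 ± 0.15) also fell in LIS1+/- and gave -0.15 ± 0.23 and -0.22 ± 0.15 in LIS1+/+. These 4 did not pass the edgeR test of a difference in genotype effect between the days. In that test RPL26 and RPL7 passed by DESeq2, and RPL26, RPL7 and RPS27A without the filter on low counts. RPL26 also passed with the replicate number as a block. For RPL7, RPL26 and RPS27A the highest Day 5 value was that of LIS1+/- replicate 2. All 3 falls between Day 5 and Day 12 in LIS1+/- also passed without that library, with log2 fold changes of -1.03, -0.89 and -1.17.

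In LIS1+/+ the members that fell at Day 12 included RPL21 (-0.94 ± 0.24), RPS3 (-0.92 ± 0.18), a small-subunit protein at the mRNA entry channel that also acts in DNA repair, RPL9 (-0.81 ± 0.18), RPS13 (-0.70 ± 0.20) and RPS26. RPS3 had 1902, 1529 and 1702 CPM at Day 12, against 3219, 3568 and 2956 CPM at Day 5. The call of RPS13 was lost without replicate 2 of either day. The 3 rises in LIS1+/+ were RPL22, RPS23 (0.65 ± 0.18; 0.55 and adjusted p = 0.0501, edgeR, without Day 12 LIS1+/+ replicate 1), a protein of the decoding centre, and RPL4 (0.62 ± 0.17). RPL4 was thus at 2910, 2616 and 2163 CPM in Day 12 LIS1+/+ after its lower Day 5 level. In LIS1+/- the 3 did not pass, with RPL22 at 0.17 ± 0.16, RPS23 at 0.12 ± 0.18 and RPL4 at 0.26 ± 0.17.

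Over the 4 stage comparisons 26 of the 79 members passed none. The matching share over all tested genes was not counted, so the 26 are not set against other genes. The 26 include all stalk proteins, RPLP0, RPLP1 and RPLP2, which recruit elongation factors, and RPL11, which with RPL5 and 5S rRNA forms the particle that binds MDM2. RPL11 averaged 3715 ± 777 CPM in hESC LIS1+/- and 3369 ± 1057 CPM in hESC LIS1+/+. RPL5 fell at Day 5 in both genotypes, to 1436 ± 46.6 CPM in LIS1+/-, against 2046 ± 302 CPM in hESC LIS1+/-, and to 1665 ± 231 CPM in LIS1+/+, against 2468 ± 238 CPM in hESC LIS1+/+. RPLP0 had 3572, 2529 and 2552 CPM in hESC LIS1+/-, against 3774, 3432 and 5506 CPM in hESC LIS1+/+, and its groups overlapped. RPS4X, the X-linked copy of a small-subunit gene, fell at Day 5 in LIS1+/+ (-0.64 ± 0.16).

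The paralogs were counted at low levels. RPL22L1, the paralog whose splicing RPL22 is known to control, was at 6.31, 7.66 and 5.05 CPM in hESC LIS1+/- and 6.19, 5.34 and 8.07 CPM in hESC LIS1+/+. It was at 4.86, 1.83 and 0.585 CPM in Day 5 LIS1+/- and 4.34, 3.15 and 2.48 CPM in Day 5 LIS1+/+. At Day 12 it was at 0, 0.285 and 0.57 CPM in LIS1+/- and 1.29, 1.89 and 0.973 CPM in LIS1+/+. In LIS1+/- both falls passed (-1.41 ± 0.58 at Day 5 over hESC and -2.62 ± 0.85 at Day 12 over Day 5), the last from a group of 3 libraries that includes a 0. The Day 5 call was lost without the 3 libraries that stand apart (-1.27, adjusted p = 0.132, edgeR), and leaving out single libraries ended it in 5 of 6 cases and the Day 12 call in 4 of 6. RPL39L, known from testis and stem cells, fell at Day 5 in LIS1+/- (17.2 ± 5.19 CPM, against 28.8 ± 3.81 CPM in hESC LIS1+/-). RPS27L, a p53 target, passed in no stage comparison.

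**Figure D3:**
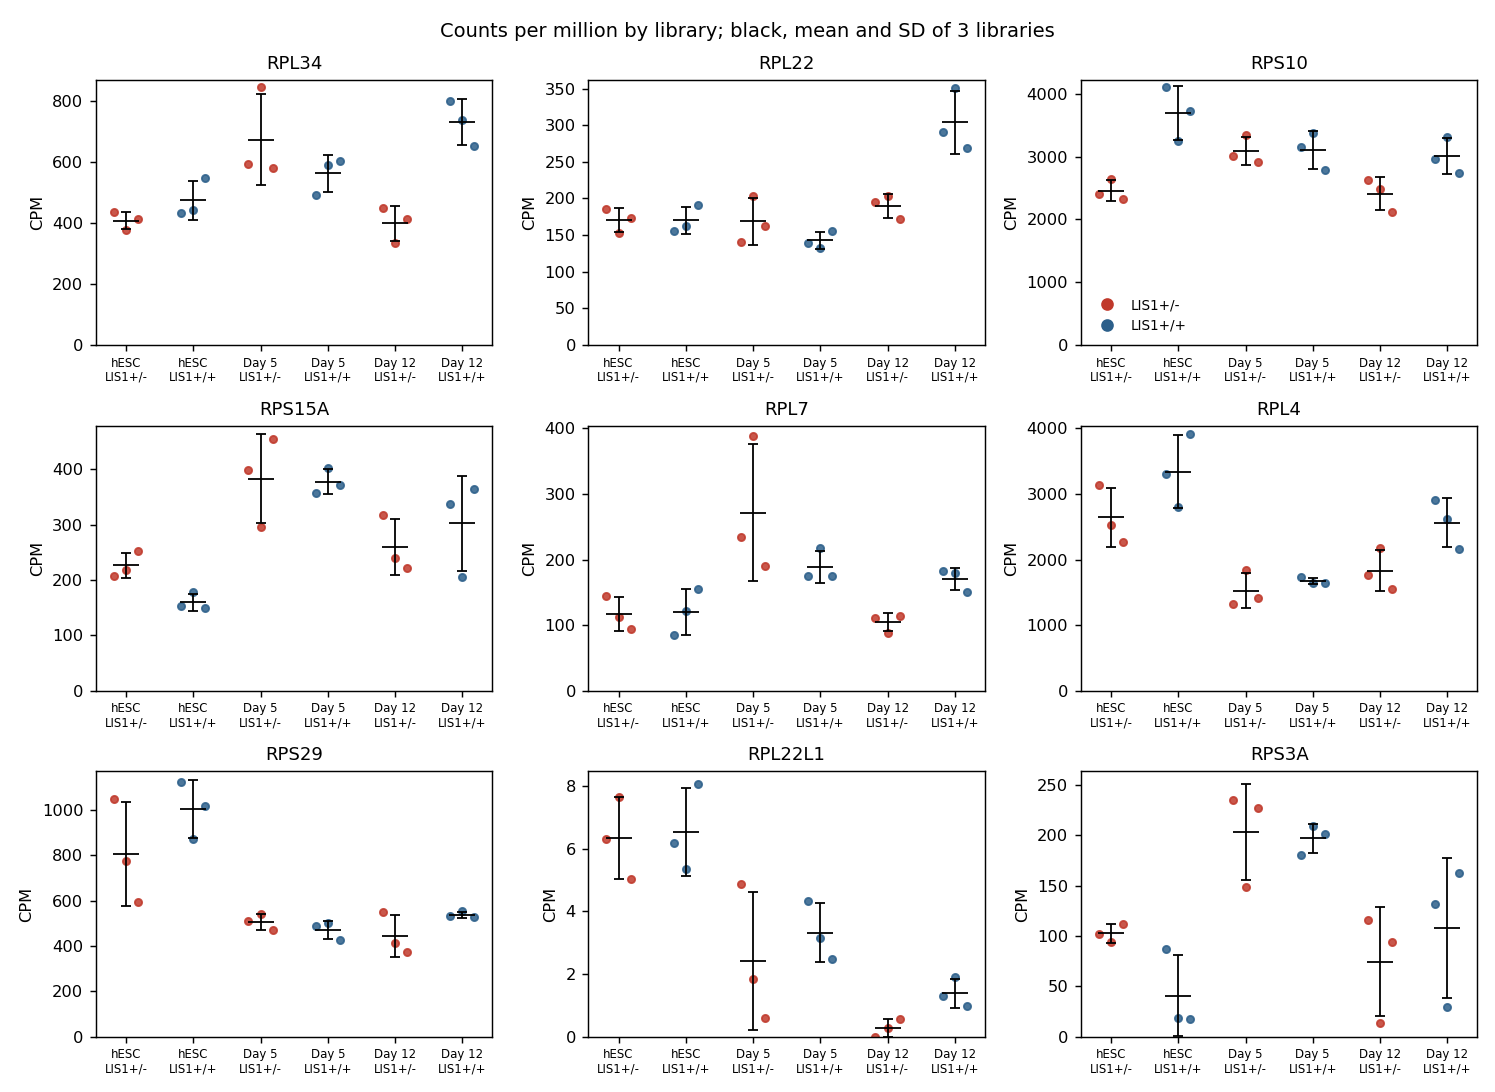
CPM by library of 9 members in the 6 groups, with mean and SD of 3 libraries in black; each vertical axis starts at 0. RPL34 and RPL22 are lower in Day 12 LIS1+/- than in Day 12 LIS1+/+ with no overlap. RPS10 is lower in hESC LIS1+/- than in hESC LIS1+/+. RPS3A is uneven among the libraries of hESC LIS1+/+ and of both Day 12 groups.

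Between genotypes few members passed. At Day 12, 2 fell and 0 rose in LIS1+/- (2.53% of members, against 1.4% of all tested genes, 1.06% lower). Both are of the large subunit. RPL34 had 448, 335 and 412 CPM in Day 12 LIS1+/-, against 801, 739 and 651 CPM in Day 12 LIS1+/+. The groups did not overlap, the means were 399 ± 57.6 CPM in LIS1+/- and 730 ± 75.6 CPM in LIS1+/+, and the level was 1.83-fold lower (log2 fold change -0.87 ± 0.16, adjusted p = 0.00412, edgeR). It passed under every alternative run, each library left out in turn included. Of its stretches of 50 bases at the 3' end, 34.3% also occur in other genes.

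RPL22, a large-subunit protein that cells can do without and that binds other RNAs, had 195, 203 and 172 CPM in Day 12 LIS1+/-, against 291, 351 and 269 CPM in Day 12 LIS1+/+. The groups did not overlap and the level was 1.6-fold lower (-0.68 ± 0.16, adjusted p = 0.0252, edgeR). This call was lost in 5 of the 6 fits that left out 1 library (adjusted p of up to 0.175), with Day 12 LIS1+/+ replicate 3 the exception, and when only the Day 12 libraries were fitted (adjusted p = 0.103, edgeR). None of the stretches at the 3' end of RPL22 was shared with another gene.

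Most other members leaned the same way at Day 12 without passing. Of the 79 tested, 74 had a negative log2 fold change, and the median was -0.26, against -0.01 over all genes and -0.01 over the 200 most counted genes outside the family. In 23 members (29.1%) all LIS1+/- libraries lay below all LIS1+/+ libraries, and in 0 members above, where 8.43% of all tested genes lay below and 8.47% above. Large-subunit members had a median of -0.33 and small-subunit members -0.21. The member nearest to passing was RPL26 (-0.93 ± 0.24, adjusted p = 0.0577, edgeR). Members share a library and its scaling, so these counts are not independent. Without the 3 libraries that stand apart, 6 members fell and 0 rose, and DESeq2 also gave 6 falls. RPL26 passed in both. With the GC trend removed 2 members passed, and with only the Day 12 libraries fitted 1 passed. Leaving out Day 12 LIS1+/- replicate 2 or 3 or Day 12 LIS1+/+ replicate 1 also left 1.

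Sums of some markers of other cell types were higher in Day 12 LIS1+/+, by most in replicate 1. The 5 mesenchyme markers summed to 85.4 to 114 CPM in Day 12 LIS1+/- and 121 to 715 CPM in Day 12 LIS1+/+, with none at 0. COL3A1 had 5.56, 2.85 and 3.13 CPM in LIS1+/-, against 203, 15.1 and 64.2 CPM in LIS1+/+. Markers of endoderm, liver and yolk sac summed to 7.98 to 20.4 CPM in LIS1+/-, with FOXA2 and SOX17 at 0, and 20.8 to 456 CPM in LIS1+/+. AFP had 0.618, 0.569 and 0.855 CPM in LIS1+/-, against 120, 3.15 and 7.3 CPM in LIS1+/+. Marker sums of neurons (412 to 535 CPM in LIS1+/- and 320 to 567 CPM in LIS1+/+), surface ectoderm (186 to 209 and 114 to 383 CPM) and neural progenitors (2275 to 2778 and 1692 to 3555 CPM) overlapped between genotypes. In hESC LIS1+/- the mesenchyme and endoderm lists also summed to 410 to 511 and 57.7 to 90.9 CPM. In hESC LIS1+/+ they summed to 418 to 455 and 41.4 to 69.5 CPM, so a sum alone does not show which cells were present. The part of these markers in the ribosomal protein differences was not tested.

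In hESC, 1 member fell and 0 rose in LIS1+/- (1.27%, against 0.491% of all tested genes, 0.196% lower). The member median was -0.13, against 0.03 over all genes and 0.04 over the 200 most counted genes outside the family. RPS10, a small-subunit protein involved in the response to stalled ribosomes and mutated in some cases of Diamond-Blackfan anaemia, had 2402, 2651 and 2328 CPM in hESC LIS1+/-, against 4103, 3247 and 3734 CPM in hESC LIS1+/+. The groups did not overlap (-0.59 ± 0.14, adjusted p = 0.0452, edgeR). Leaving out 1 library ended the call in 5 of 6 cases (adjusted p from 0.108 to 0.231), with hESC LIS1+/+ replicate 2 the exception. At later stages RPS10 gave -0.01 ± 0.14 at Day 5 and -0.32 ± 0.14 at Day 12. Of the stretches at the end of the RPS10 transcript, 79.3% also occur in other annotated genes, and 11 pseudogenes carry its name. The share of alignments set aside as not unique was 42.8% ± 8.96 in hESC LIS1+/- and 52.9% ± 6.12 in hESC LIS1+/+. The part of these alignments in the RPS10 difference was not tested. The summed stem cell markers were lower in hESC LIS1+/- than in hESC LIS1+/+, as given above. POU5F1 alone overlapped between genotypes (509, 400 and 458 CPM in hESC LIS1+/-, against 562, 529 and 459 CPM in hESC LIS1+/+). The part of these markers was not tested.

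At Day 5, 0 of 79 members passed by edgeR (1.95% of all tested genes did) and 0 by DESeq2. Of the 79, 5 had an unadjusted p under 0.05, against 1404 of all 12215 tested genes. The median was -0.07, against 0.01 over all genes and -0.07 over the 200 most counted genes outside the family. The smallest p was that of RPS3, with 2279 ± 569 CPM in Day 5 LIS1+/- and 3247 ± 307 CPM in Day 5 LIS1+/+ (adjusted p = 0.175, edgeR).

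**Figure D4:**
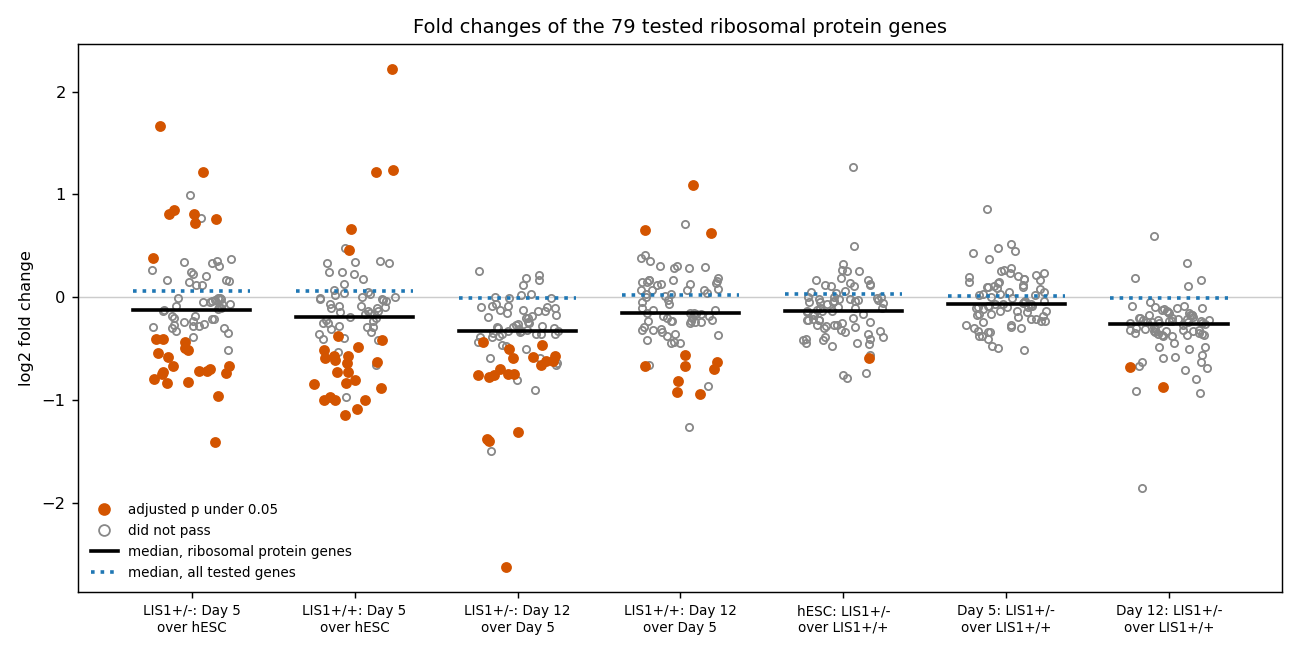
Each point is the log2 fold change of 1 of the 79 tested members in the comparison named below it; filled points passed an adjusted p of 0.05, black lines are member medians and dotted lines the medians of all tested genes. Member medians lie below those of all genes in all 7 comparisons, among them LIS1+/- at Day 12 over Day 5 (-0.33, against -0.01), the genotypes at Day 12 (-0.26, against -0.01) and LIS1+/+ at Day 5 over hESC (-0.19, against 0.06). The 200 most counted genes outside the family, which are not drawn, had medians of -0.20, -0.01 and -0.19 in these comparisons, in that order.

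The test of whether the genotype effect differs between stages passed for the same RPL34 and RPL22 between Day 12 and Day 5 (2.53% of members, against 1.06% of all tested genes, 0.671% lower). For RPL34, at 594, 844 and 579 CPM in Day 5 LIS1+/- and 492, 591 and 604 CPM in Day 5 LIS1+/+, the difference of effects was -1.13 ± 0.23 (adjusted p = 0.0114, edgeR). It held under every alternative. For RPL22, at 140, 203 and 163 CPM in Day 5 LIS1+/- and 139, 133 and 156 CPM in Day 5 LIS1+/+, it was -0.92 ± 0.23 (adjusted p = 0.0405, edgeR). Without the 3 libraries that stand apart RPL22 gave -0.65 (adjusted p = 0.15, edgeR), and 10 of 12 fits without 1 library also ended the call. The Day 5 libraries enter both the stage and the genotype comparisons of these genes. For Day 5 against hESC 0 members passed (0.573% of all tested genes), and 0 by DESeq2. Here 13 of the 79 had an unadjusted p under 0.05, against 1467 of all 12215 tested genes. For Day 12 against hESC 0 members passed (0.377% of all tested genes), and 0 by DESeq2. Here 5 of the 79 had an unadjusted p under 0.05, against 991 of all 12215 tested genes.

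Most genes that build ribosomes fell between stages in both genotypes. Of 63 tested biogenesis factors, 42 fell and 0 rose in LIS1+/+ between hESC and Day 5, with a median log2 fold change of -0.64, and in LIS1+/- 35 fell and 0 rose, with a median of -0.68. Between Day 5 and Day 12, 38 fell and 0 rose in LIS1+/- (median -0.63), and 36 fell and 1 rose in LIS1+/+ (median -0.63). NOP16, a nucleolar factor of the large subunit and a MYC target, was at 63.6 ± 6.19 CPM in Day 5 LIS1+/-, against 206 ± 17.9 CPM in hESC LIS1+/-. NCL, which encodes nucleolin, was at 568 ± 8.25 CPM in Day 5 LIS1+/+, against 1282 ± 67 CPM in hESC LIS1+/+ (-1.17 ± 0.13). Of all tested genes, 21.4% fell at Day 5 in LIS1+/- and 21.7% in LIS1+/+, and 7.64% fell between Day 5 and Day 12 in LIS1+/- and 11.7% in LIS1+/+. Between genotypes 0 of the 63 passed at any stage by edgeR, and their Day 12 median was 0.01. Of all tested genes 0.491%, 1.95% and 1.4% passed in hESC, at Day 5 and at Day 12. The unadjusted p was under 0.05 for 5, 3 and 7 of the 63 in that order, against 1367, 1404 and 1548 of all 12215.

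Of 73 tested mitochondrial ribosomal proteins, which serve the separate ribosome of mitochondria, 36 fell and 5 rose in LIS1+/- between hESC and Day 5 (median -0.44), and 42 fell and 1 rose in LIS1+/+ (median -0.57). MRPL32 fell by 1.34 ± 0.17 in LIS1+/- and by 1.46 ± 0.16 in LIS1+/+. Between Day 5 and Day 12, 10 fell and 0 rose in LIS1+/- (median -0.35), and 23 fell and 0 rose in LIS1+/+ (median -0.37). The shares passing in either direction, at Day 5 and then at Day 12, were 56.2% and 13.7% in LIS1+/- and 58.9% and 31.5% in LIS1+/+, against 43.7% and 16.5% of all tested genes in LIS1+/- and 44.6% and 24.5% in LIS1+/+. At Day 12 their genotype median was 0.01. Of 21 translation factors and other TOP mRNAs, 5 fell and 2 rose in LIS1+/- at Day 5 (median -0.16), and 6 fell and 1 rose in LIS1+/+ (median -0.19). Between Day 5 and Day 12, 3 fell and 0 rose in LIS1+/- (median -0.26), and 2 fell and 0 rose in LIS1+/+ (median -0.09). Thus 33.3% passed at Day 5 in each genotype, below the shares of all tested genes just given, and 14.3% in LIS1+/- and 9.52% in LIS1+/+ at Day 12, also below them. Their genotype median at Day 12 was -0.22, with 17 of 21 negative and 0 passing by edgeR. Of the 21, 7 had an unadjusted p under 0.05, against 1548 of all 12215 tested genes. NPM1, a nucleolar chaperone, fell at each step in both genotypes. EEF1A1, whose gene likewise has many pseudogenes, was at 36 ± 9.86 CPM in hESC LIS1+/- and 35.5 ± 14.7 CPM in hESC LIS1+/+.

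**Figure D5:**
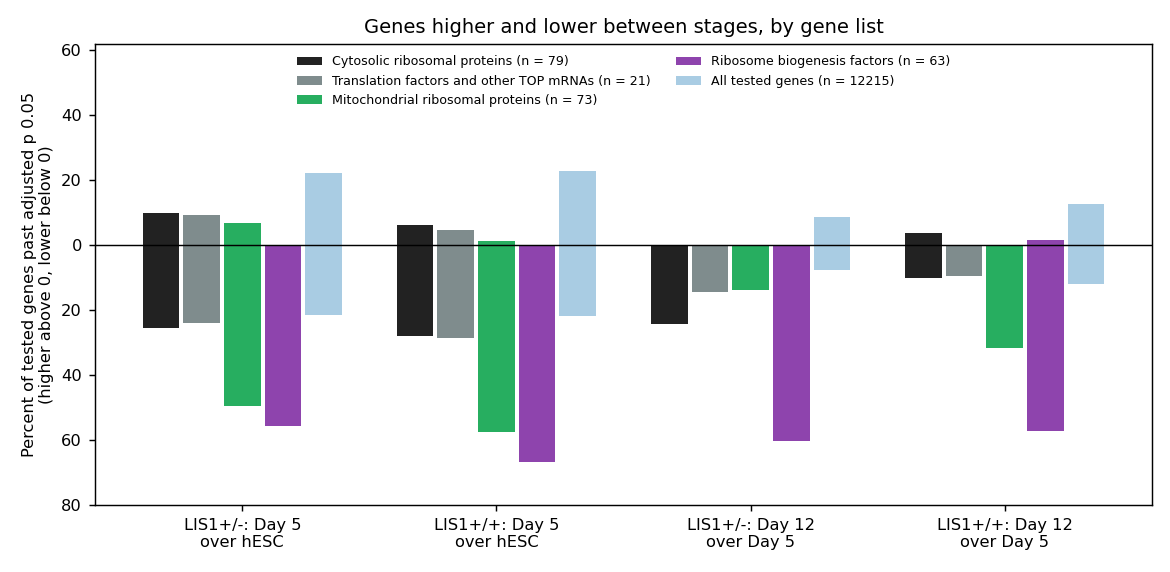
Percent of each list's tested genes that rose (above 0) or fell (below 0) past an adjusted p of 0.05 in the 4 stage comparisons. Biogenesis factors fell in 55.6% to 66.7% of cases between hESC and Day 5, while the bars of the cytosolic ribosomal proteins, up and down together, come to 35.4%, 34.2%, 24.1% and 13.9% from left to right.

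Of 19 tested regulators, 5 fell and 4 rose in LIS1+/- between hESC and Day 5 (median -0.13). In LIS1+/+ 8 fell and 4 rose (median -0.40). These are 47.4% and 63.2% of the list, against 43.7% and 44.6% of all tested genes. Among the regulators, MYC was at 24.4 ± 3.96 CPM in Day 5 LIS1+/-, against 145 ± 12 CPM in hESC LIS1+/-. In LIS1+/+ MYC was at 17.2 ± 1.84 CPM at Day 5, against 113 ± 17.8 CPM in hESC. LARP1, which binds the TOP start, fell at Day 5 in LIS1+/+ (183 ± 4.73 CPM, against 517 ± 73.1 CPM in hESC LIS1+/+). In LIS1+/- LARP1 was also lower, at 198 ± 15.1 CPM at Day 5, against 386 ± 4.98 CPM in hESC LIS1+/-. In genotype comparisons 2 regulators passed. At Day 12 both fell in LIS1+/- (10.5% of the 19, against 1.4% of all tested genes). At Day 5 1 of them fell (5.26%, against 1.95%), and in hESC 0 passed (against 0.491%). MYCN had 97.1, 116 and 113 CPM in Day 12 LIS1+/-, against 159, 213 and 182 CPM in Day 12 LIS1+/+ (-0.76 ± 0.16, adjusted p = 0.0124, edgeR). Its genotype effect at Day 12 differed from that at Day 5 by -1.12 ± 0.23 (adjusted p = 0.0117, edgeR). DDIT4, an inhibitor of mTOR complex 1, had 504, 493 and 292 CPM in Day 12 LIS1+/-, against 834, 581 and 757 CPM in Day 12 LIS1+/+ (-0.76 ± 0.19, adjusted p = 0.0375, edgeR), and was also lower in LIS1+/- at Day 5 (-1.06 ± 0.20). In hESC DDIT4 had 158, 144 and 155 CPM in LIS1+/-, against 107, 94.2 and 110 CPM in LIS1+/+, the other direction, without passing (0.55 ± 0.20, adjusted p = 0.268, edgeR). Its genotype effect differed from that in hESC by -1.61 ± 0.28 at Day 5 (adjusted p = 0.00397, edgeR) and by -1.31 ± 0.28 at Day 12 (adjusted p = 0.0257, edgeR). At Day 12 DDIT4 was at 430 ± 119 CPM in LIS1+/-, against 50.7 ± 12.3 CPM in Day 5 LIS1+/-, and at 724 ± 130 CPM in LIS1+/+, against 106 ± 11.8 CPM in Day 5 LIS1+/+. RPL36AL, a ribosomal protein retrogene outside the symbol rule, was at 242 ± 23.2 CPM in Day 5 LIS1+/-, against 535 ± 118 CPM in hESC LIS1+/-, and at 257 ± 33 CPM in Day 5 LIS1+/+, against 660 ± 133 CPM in hESC LIS1+/+.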

How the data were processed

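Bulk MARS-seq libraries of the WIBR3 line were analysed, 18 in 6 groups of 3. The authors' deposited values are counts without normalization, 1 whole number per gene symbol and library, over 26485 gene rows and 5 closing rows that tally reads given to no gene. Cutadapt, STAR and DESeq2 are named in the submitters' processing notes, as are GRCh37 and hg38, without roles. Collapse of molecular identifiers and the use of strand are not given in the sources used here. Reads from overlapping or antisense genes can therefore not be told apart.

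Closing rows were left out of library sizes. Of all counted alignments per library, they gave 26.5% to 58.3% as not unique, 11.9% to 25.4% as in no feature and 0.418% to 0.677% as ambiguous. Genes were filtered with filterByExpr, which left 12215, and scaled with TMM. All 18 libraries went into 1 edgeR 4.0.16 model (quasi-likelihood F-test, robust; limma 3.58.1 and R 4.3.3) that leaves 12 residual degrees of freedom. The 10 comparisons were two-sided, with Benjamini-Hochberg adjustment over all tested genes and a threshold of 0.05. Errors are SD (n = 3) or SE of the log2 fold change. A list is given by counts and medians, without a test of its own.

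Members, gene lists and naming rule were all chosen with earlier results of these data known. The rule named members that passed between genotypes, the 6 largest rises and falls without overlap in each stage comparison, paralogs and their partners, 5S and stalk proteins, RPSA, RPS4X, members under 3 counts and up to 4 genes a list, not all of which are reported here. RPS6, RPL26 at Day 12, RPS3 at Day 5, RPS24 and RPL36AL were named after their values were seen.

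Alternatives were DESeq2 size factors, TMM without ribosomal protein rows, no filter, DESeq2 1.42.0, a fit of the compared libraries only, the replicate block, leaving out the 3 libraries that stand apart, each library left out and, chosen after seeing the data, a removed GC trend. The fitting step was tested on simulated data. Shared 3' sequence and GC content came from GENCODE release 29. Python 3.11.15, NumPy 2.4.6, pandas 2.3.3 and Matplotlib 3.10.9 were used.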

Additional observations from a re-analysis of the deposited data

Results flagged for a closer look

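For 2 members the genotype effect at Day 12 differed from that at Day 5 by the test of the difference itself. RPL34 gave a difference of effects of -1.13 on the log2 scale (adjusted p = 0.0114, edgeR), with all 3 Day 12 LIS1+/- libraries below all 3 Day 12 LIS1+/+ libraries and overlapping groups at Day 5. RPL22 gave -0.92 (adjusted p = 0.0405, edgeR), again with no overlap at Day 12 and overlap at Day 5. Of the 2, RPL34 also passed in every fit that left out 1 library (adjusted p of up to 0.0459), while RPL22 passed in 2 of 12.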

How the results depend on the processing

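Groups of 3 libraries limit the calls, and 10 of the 82 members averaged under 100 counts per library. Scaling by DESeq2 size factors or by TMM without the ribosomal protein rows shifted the median of all genes by under 0.1 and changed none of the 43 named results. Of the named results 41 also passed with the GC trend removed, and no named result changed sign under any alternative.

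Counts of members called moved by over 1.5 times as follows. Without the filter on low counts they were 5 in hESC, 1 at Day 5 and 11 at Day 12 between genotypes, and, for the difference of genotype effects, 3 (Day 5 minus hESC), 8 (Day 12 minus Day 5) and 2 (Day 12 minus hESC). DESeq2 gave 6 at Day 12 and 4 for Day 12 minus Day 5. A fit of the compared libraries only gave 3 in hESC, 1 at Day 12 and 1 for Day 12 minus Day 5. Without the 3 libraries that stand apart there were 6 at Day 12, 1 for Day 12 minus Day 5 and 1 in the test of Day 12 minus hESC. With the GC trend removed 31 members fell in LIS1+/- between Day 5 and Day 12, 1 passed for Day 12 minus Day 5, the LIS1+/+ median of Day 5 over hESC was -0.32 and the median for Day 5 minus hESC was 0.24. The causes were not tested. With alignments set aside as not unique in the denominator the member share was 5.98% in hESC LIS1+/- and 5.25% in hESC LIS1+/+, 7.33% in Day 5 LIS1+/- and 7.78% in Day 5 LIS1+/+, and 7.05% in Day 12 LIS1+/- and 7.91% in Day 12 LIS1+/+.

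Replicate numbers did not pair the samples: of 45 pairs of libraries with the same number, 4 had deviations correlated over 0.1 (range -0.227 to 0.331). With the replicate number as a block 4 members passed at Day 12 between genotypes, and RPL22 did not pass for Day 12 minus Day 5 (-0.91).

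Leaving out 1 library gave 0 to 1 members between genotypes in hESC (0 without LIS1+/- replicate 2 or 3 or LIS1+/+ replicate 1 or 3), 1 to 5 at Day 12 (1 without LIS1+/- replicate 2 or 3 or LIS1+/+ replicate 1, and 5 without LIS1+/+ replicate 3), 7 to 14 in LIS1+/+ (7 without Day 5 replicate 2) and 10 to 20 in LIS1+/- between Day 5 and Day 12, and 1 to 3 for Day 12 minus Day 5. The median of Day 12 minus hESC ranged from -0.22 to -0.03, the last without hESC LIS1+/- replicate 1.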

Other observations

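RPS24, a small-subunit protein mutated in some cases of Diamond-Blackfan anaemia, stood out in 1 library. It was at 1327 CPM in Day 12 LIS1+/+ replicate 3, against 339 and 347 CPM in the other Day 12 LIS1+/+ libraries, a ratio of highest to lowest of 3.91. Over the 72 members with a mean of at least 100 counts and the 6 groups, the median of that ratio was 1.27, and 15 of 432 member and group pairs were over 2. RPS3A had the widest ratios, 8.47 in Day 12 LIS1+/-, 5.51 in Day 12 LIS1+/+ and 5.01 in hESC LIS1+/+.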
